A study of Mus musculus with 24 samples.

Results

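Genes of DNA replication and deoxynucleotide synthesis were followed on 24 mouse thyroid arrays. The list holds 46 genes and was set by their known roles. Of these, 44 had a probe set named for that gene alone and were measured, among 12394 genes measured in all. Each gene was read through its brightest probe set on average. Gins2 and Chaf1a were not analysed here.

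The study compared tumours with normal thyroid tissue, and its title concerns anaplastic cancers that resist inactivation of BRAF, a kinase of the MAPK cascade. By tissue label there were 9 recurrent tumours, 5 anaplastic thyroid cancers (ATC, undifferentiated), 4 papillary thyroid cancers (PTC, differentiated) and 6 pools of normal thyroid glands. Apart from WT or Cre in the titles of the normal pools, the labels used here give no genotype, strain, age or treatment for any group. Titles carry JK on 3 recurrent, 2 ATC, 4 PTC and 4 normal arrays. A bare number stands on the other 6 recurrent and 3 ATC arrays, and Cre on the other 2 normal pools, while the 4 JK pools also carry WT. Whether each tumour was taken from its own animal is not stated, so p-values reflect only how far these samples spread, and part of that spread may be technical.

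Before a cell copies its genome, the origin recognition complex with Cdc6 and Cdt1 loads the Mcm helicase onto origins, and geminin (Gmnn) blocks further loading by binding Cdt1. Cdc45 and the GINS complex then activate the helicase, and primase, the polymerases, the clamp Pcna with its loader RFC, and the single-strand binding protein RPA copy the DNA. Ribonucleotide reductase and thymidylate enzymes supply the building blocks. Many of these genes are transcribed at the passage from G1 into S phase under E2F factors, so tissue with few dividing cells tends to hold less of their transcripts. In whole tissue, fewer cells that express a gene and less RNA per cell cannot be told apart.

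Promoters of members that moved together are shown first, since E2F factors are the best known common regulators of these genes. The window runs from 250 bases before to 50 bases after each RefSeq start site on GRCm38.p6, and 37 of the 44 measured genes had one. An E2F-type match was any of TTTCCCGC, TTTGGCGC, TTTCGCGC or TTTGCCGC on either strand. At least 1 match lay in the window of 13 of 37 members (35.1%), against 704 of 27025 genes with a window (2.6%). CCAAT, on either strand, stood in the windows of 22 of 37 members (59.5%) and of 41.1% of all genes. The 4 windows below belong to the called genes with the largest difference between ATC and normal pools that held an E2F-type match, which stands in capitals.
Uhrf1, chr17:56304063-56304362, plus strand: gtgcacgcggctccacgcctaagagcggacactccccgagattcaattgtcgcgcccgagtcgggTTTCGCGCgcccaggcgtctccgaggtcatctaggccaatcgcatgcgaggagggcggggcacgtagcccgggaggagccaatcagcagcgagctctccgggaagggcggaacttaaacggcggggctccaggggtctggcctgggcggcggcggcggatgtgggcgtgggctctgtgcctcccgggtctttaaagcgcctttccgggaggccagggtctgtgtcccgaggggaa
Mcm5, chr8:75109259-75109558, plus strand: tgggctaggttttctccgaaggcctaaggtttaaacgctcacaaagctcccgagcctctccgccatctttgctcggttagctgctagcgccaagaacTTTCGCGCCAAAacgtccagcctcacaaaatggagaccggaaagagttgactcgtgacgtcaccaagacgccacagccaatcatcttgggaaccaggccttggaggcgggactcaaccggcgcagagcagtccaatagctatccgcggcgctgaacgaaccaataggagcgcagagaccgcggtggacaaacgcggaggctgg
Mcm3, chr1:20820263-20820562, minus strand: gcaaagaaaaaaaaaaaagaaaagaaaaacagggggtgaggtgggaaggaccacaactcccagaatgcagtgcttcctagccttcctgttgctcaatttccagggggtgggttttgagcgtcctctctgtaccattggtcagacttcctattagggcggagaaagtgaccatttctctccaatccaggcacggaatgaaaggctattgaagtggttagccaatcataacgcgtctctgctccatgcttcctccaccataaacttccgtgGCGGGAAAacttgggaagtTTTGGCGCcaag
Cdt1, chr8:122567765-122568064, plus strand: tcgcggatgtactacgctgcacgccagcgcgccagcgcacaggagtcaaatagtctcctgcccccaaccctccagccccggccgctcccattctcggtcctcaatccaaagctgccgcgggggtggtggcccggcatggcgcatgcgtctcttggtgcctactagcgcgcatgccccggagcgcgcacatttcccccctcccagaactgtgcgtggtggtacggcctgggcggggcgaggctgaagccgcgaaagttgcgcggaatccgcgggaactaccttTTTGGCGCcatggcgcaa
In Mcm5 the plus-strand TTTCGCGC and the minus-strand TTTGGCGC, read here as GCGCCAAA, overlap by 4 bases and form the capital run. The Mcm3 and Cdt1 matches lie after the start site, at 19 and 38 bases in Mcm3 and at 32 bases in Cdt1. Rrm2, the gene with the largest rise, had no E2F-type match in its window, which says only that these letters are not in it. A match is a string of letters and was not tested as a binding site.

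Against the normal pools, 37 of the 44 genes rose and 1 fell in recurrent tumours, where limma called 14.5% of all 12394 genes higher and 19.3% lower (adjusted p under 0.05). In ATC 24 rose and 2 fell, against 15.1% higher and 19.1% lower of all genes. In PTC 8 rose and 2 fell, with 6.16% of all genes higher and 8.03% lower. The median difference of the 44 genes was 1.26 (log2) in recurrent tumours, 0.86 in ATC and 0.44 in PTC. Over all genes these medians were -0.03, -0.08 and -0.01. The 3 comparisons share the same normal pools. Groups did not overlap for 16, 26 and 23 of the 44 genes in recurrent tumours, ATC and PTC against normal, where 8.02%, 34.1% and 34.3% of all genes had groups apart.

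**Figure D1:**
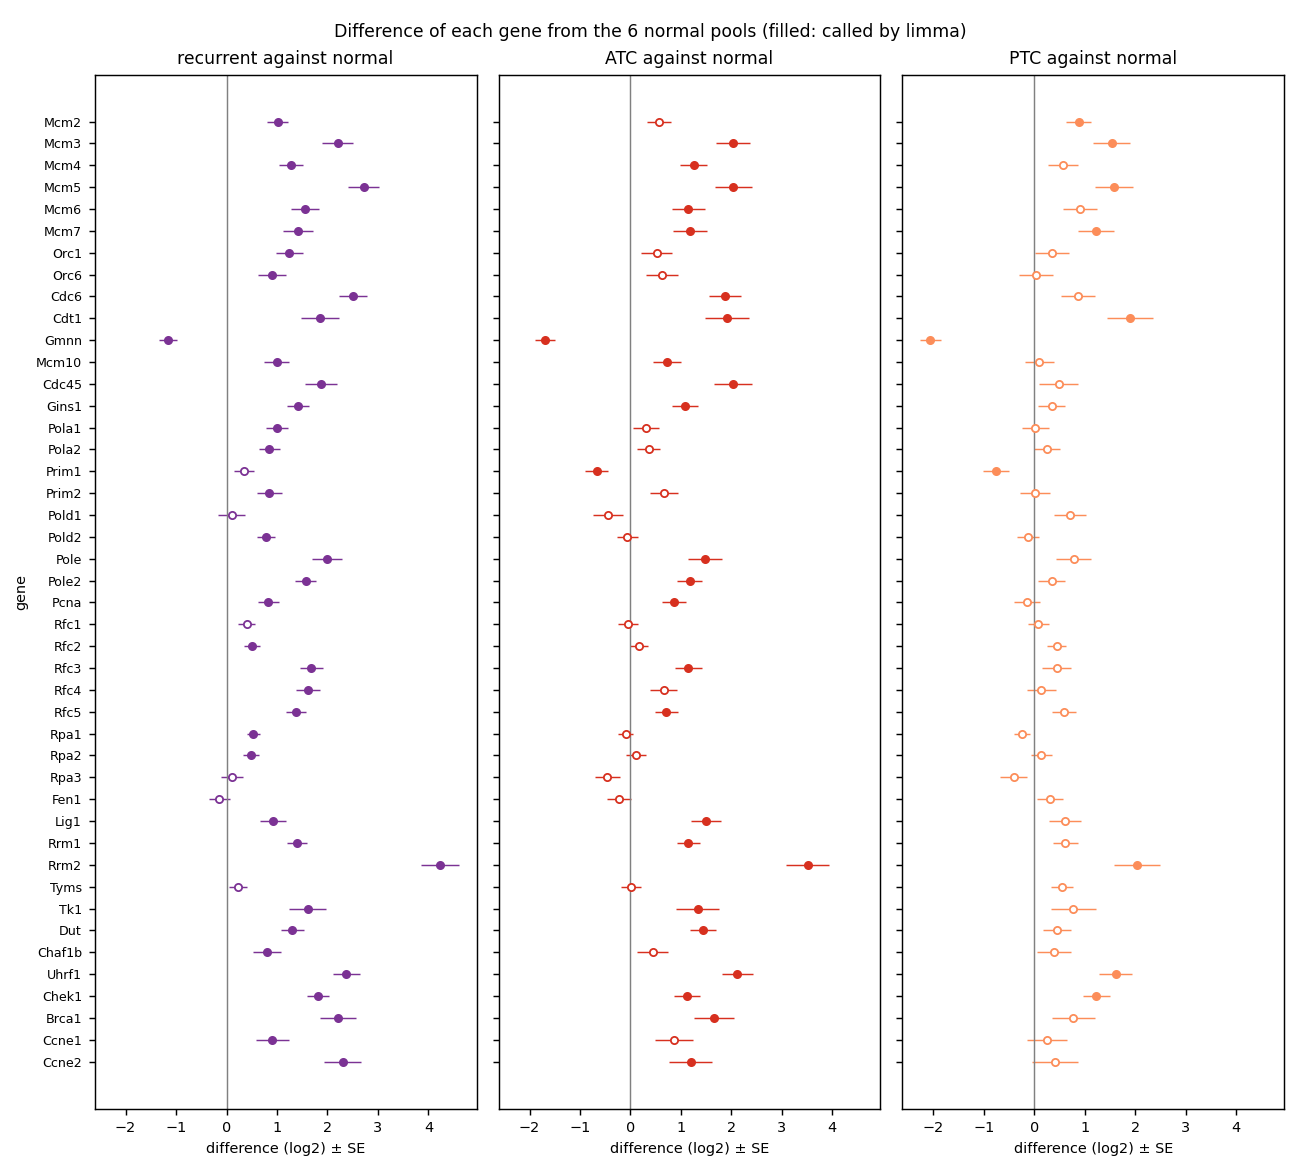
Difference of each of the 44 genes from the 6 normal pools (x axis, log2, with limma standard error) in recurrent tumours, ATC and PTC. Filled points were called by limma, and Gmnn is the gene that lies left of 0 and is filled in all 3 panels.

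Of the 44 genes, 7 rose in all 3 tumour groups: Cdt1, Chek1, Mcm3, Mcm5, Mcm7, Rrm2 and Uhrf1. Another 17 rose in recurrent tumours and ATC and were not called in PTC, and 12 were called higher in recurrent tumours and in neither other group, which does not show that the groups differ. Mcm2 was called higher in recurrent tumours and PTC. Gmnn fell in all 3 groups, and Prim1 fell in ATC and PTC. Fen1, Pold1, Rfc1, Rpa3 and Tyms were called in none of the 3.

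Some values of the whole series moved with these counts, and their part in them was not tested. Mki67, made in dividing cells, rose by 3.47 ± 0.51 in recurrent tumours, 3.08 ± 0.59 in ATC and 2.23 ± 0.63 (SE) in PTC (limma adjusted p = 2.08e-05, 0.00033 and 0.0189). Normal pools 3 and 5 had the highest level of Mki67 among pools (8.23 and 8.56, against 5.91 to 6.59 in the other 4), and the macrophage list mean of pool 5 lay 1.15 above the mean of the pools. Without these 2 pools the counts were 35, 23 and 9 called genes for recurrent tumours, ATC and PTC against the other pools. No call made with all pools changed sign. The array labelled recurrent 2 read Braf at 11.14, within the ATC range of 10.29 to 11.98, while the other 8 recurrent arrays lay lower. Without recurrent 2, 36 genes rose and 1 fell against normal pools. The share of all genes called without these pools or without recurrent 2 is not given here. These counts therefore cannot show a change particular to the listed genes. Thyroglobulin, Tg, stood at 14.18 on the array labelled recurrent 4, at 11.31 on recurrent 1 and at 13.48 on ATC 4, with the other recurrent and ATC arrays at 4.46 to 5.98. Gapdh probe sets at the 3' end read above those at the 5' end, a gap that widens with RNA degradation, by 1.11 to 1.60 (log2) in PTC, by -0.02 to 0.17 on the bare-number arrays of both tumour types and by 0.36 to 1.07 on all other arrays.

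Levels of cell type markers differed between the groups as well. Against normal pools limma called 14.5% of all genes higher and 19.3% lower in recurrent tumours. These shares were 15.1% and 19.1% in ATC, and 6.16% and 8.03% in PTC. Of 8 measured thyrocyte markers 7 fell in recurrent tumours, 7 in ATC and 4 in PTC, where 1 rose and 3 were not called. Their mean relative to the pools ran from -5.04 to -1.89 on recurrent arrays, from -4.79 to -2.31 in ATC and from -1.74 to -1.04 in PTC, with normal pools at -0.23 to 0.23. Macrophage markers rose in 4, 8 and 2 of 10 cases in the same order, with means of -0.85 to 2.73, 1.75 to 2.35 and 0.89 to 1.77, and -0.51 to 1.15 in the pools. Fibroblast markers rose in 5, 5 and 1 of 8 cases, where the 1 in PTC is near the background. The T and NK cell list had means of -0.91 to 0.26 on recurrent arrays, -0.68 to -0.28 in ATC and -0.56 to 0.13 in PTC, and -0.41 to 1.03 in the pools. Adipocyte markers fell in 5, 5 and 4 of 5 cases, with means of -4.78 to -1.32 on recurrent arrays, -5.03 to -3.19 in ATC and -3.51 to -2.52 in PTC, and -2.19 to 0.53 in the pools, where pool 5 was lowest. Skeletal muscle means ran from -5.19 to 3.52 on recurrent arrays, with recurrent 2 and 3 at -5.19 and -4.98, from -2.63 to 1.76 in ATC and from -1.31 to 0.68 in PTC, and from -1.39 to 1.72 in the pools. RMA values have no zero, so no marker can be given as absent. Whether cell makeup itself differed, and its part in the results, was not tested.

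**Figure D2:**
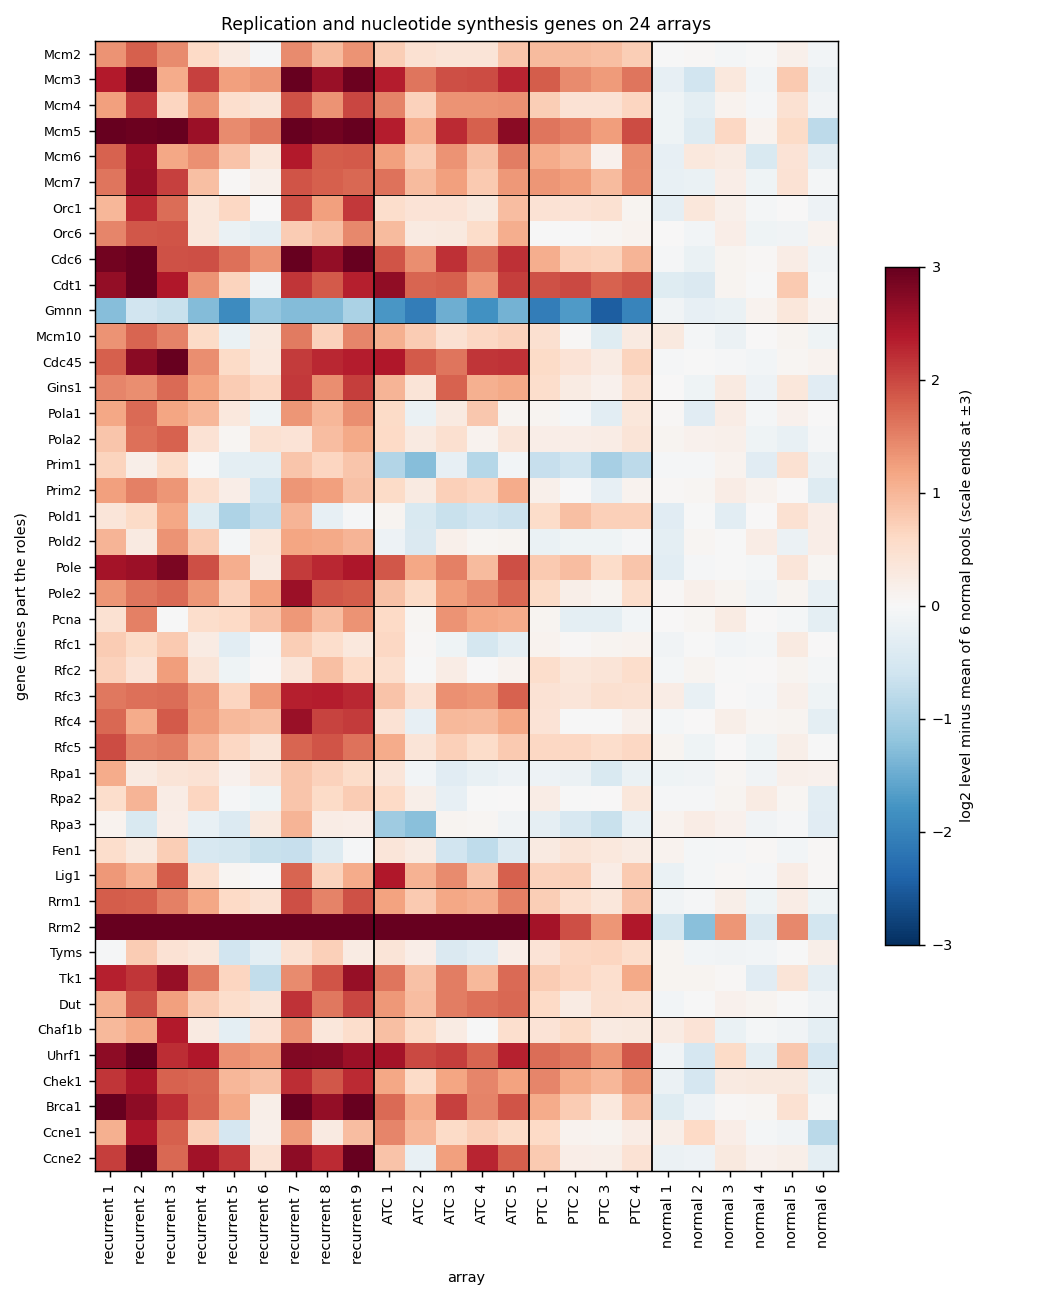
Level of each of the 44 genes (rows, by role) on each of the 24 arrays (columns, by group), as log2 level minus the mean of the 6 normal pools; colours end at 3 in both directions. Rrm2 is dark red on every recurrent and ATC array, and Gmnn is blue on every tumour array.

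Among the genes that license origins, Cdc6 and Cdt1 were higher in tumours and Gmnn was lower. Cdc6, which recruits the helicase to origins, ran from 6.68 through a median of 7.97 to 8.83 (log2) on recurrent arrays. It was at 7.22, 6.73, 7.53, 7.02 and 7.54 in ATC, at 6.42, 6.05, 6.01 and 6.35 in PTC, and from 5.13 through 5.34 to 5.57 in normal pools. Every tumour array lay above every pool, and every ATC array above every PTC array. ATC and PTC lay apart for 32.5% of all genes. limma did not call Cdc6 between ATC and PTC, while the fit of these 2 groups alone did (limma adjusted p = 0.00255). The gene rose by 2.50 ± 0.28 in recurrent tumours (limma adjusted p = 5.93e-07) and by 1.87 ± 0.32 (SE) in ATC (limma adjusted p = 0.000102). PTC lay 0.87 ± 0.34 above normal and was not called (limma adjusted p = 0.0956), while the fit of these 2 groups alone called it (9.69e-05).

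Cdt1, the partner of Cdc6 in helicase loading, rose in all 3 tumour groups. It stood at 9.98, 10.05, 9.84 and 9.94 in PTC, and at 10.72, 9.82, 9.86, 9.36 and 10.13 in ATC. Recurrent arrays spread from 7.95 through 10.21 to 11.53 and overlapped the normal pools, which ran from 7.62 through 8.04 to 8.84 with pool 5 the highest. All PTC and ATC arrays lay above the pools. The rise was 1.89 ± 0.46 (SE) in PTC, 1.91 ± 0.44 in ATC and 1.85 ± 0.38 in recurrent tumours (limma adjusted p = 0.00757, 0.00161 and 0.000615). Of its other 2 probe sets, 1 gave 1.40, 1.96 and 2.13 and the other 0.14, -0.11 and -0.04 in the same order.

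Gmnn, the inhibitor of Cdt1, went the other way. It was at 8.26, 8.63, 7.87 and 8.35 in PTC, at 8.60, 8.27, 8.88, 8.53 and 8.91 in ATC, and from 8.45 through 9.07 to 9.76 on recurrent arrays. Normal pools lay from 10.09 through 10.34 to 10.67, above every tumour array. Gmnn fell by 2.06 ± 0.21 in PTC, by 1.70 ± 0.20 in ATC and by 1.16 ± 0.17 (SE) in recurrent tumours (limma adjusted p = 5.9e-07, 1.08e-06 and 1.99e-05). Recurrent tumours were above PTC by 0.90 ± 0.19 (limma adjusted p = 0.00175). Gmnn has 1 probe set on this array, so no second reading was at hand.

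Orc1 and Orc6, subunits of the origin recognition complex, rose in recurrent tumours by 1.24 ± 0.27 and 0.90 ± 0.28 (SE; limma adjusted p = 0.00119 and 0.0156). In the fit of these 2 groups alone Orc6 was not called (limma adjusted p = 0.0534). Orc6 was at 9.08, 8.40, 8.42, 8.67 and 9.21 in ATC, above all PTC arrays (8.11 to 8.23) and all pools (8.01 to 8.32). limma did not call Orc6 in ATC (0.62 ± 0.32, adjusted p = 0.144) or Orc1 (0.52 ± 0.31, 0.215), while the fit of ATC and normal pools alone called both (0.00517 and 0.00731). Recurrent tumours differed from ATC by 0.72 in Orc1 and 0.28 in Orc6, neither called.

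**Figure D3:**
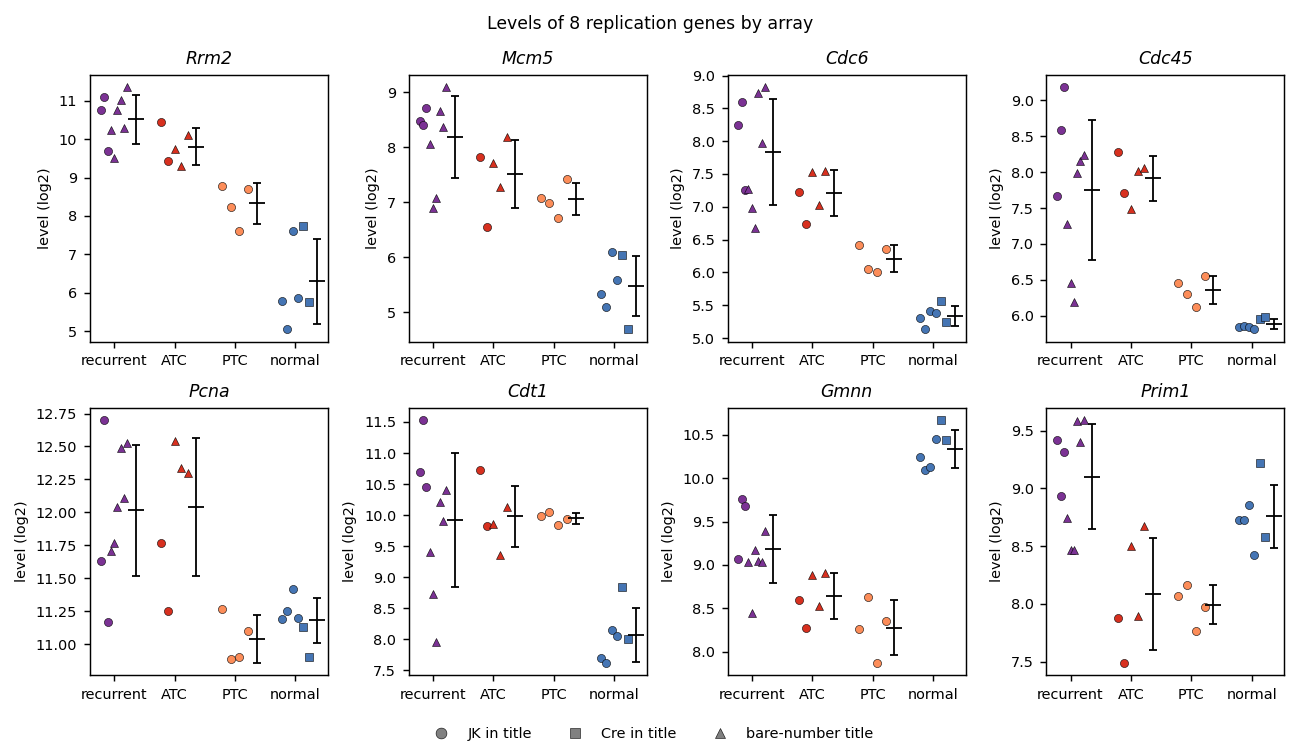
Level (y axis, log2) of Rrm2, Mcm5, Cdc6, Cdc45, Pcna, Cdt1, Gmnn and Prim1 on every array by group, with marker shapes for the kind of title and bars for mean and SD. Gmnn of all tumour arrays lies below the 6 pools, and Cdc6 of all tumour arrays above them.

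All 6 subunits of the Mcm helicase, the motor that unwinds DNA at the fork, rose in recurrent tumours, 5 of 6 in ATC and 4 of 6 in PTC. Mcm5 had the largest differences of the 6. It ran from 6.90 through 8.41 to 9.10 on recurrent arrays, with 7.83, 6.56, 7.71, 7.28 and 8.18 in ATC and 7.08, 6.99, 6.72 and 7.43 in PTC. Normal pools ran from 4.69 through 5.46 to 6.10, below every tumour array. Its rise was 2.72 ± 0.31, 2.04 ± 0.36 and 1.58 ± 0.38 (SE) in recurrent tumours, ATC and PTC (limma adjusted p = 9.63e-07, 0.000152 and 0.00699).

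Mcm3 rose by 2.20, 2.03 and 1.53 in the same order, and Mcm7 by 1.42, 1.18 and 1.22. Mcm2 had the smallest differences of the 6 in recurrent tumours and ATC (1.01 and 0.56, the second not called with limma adjusted p = 0.0737), and 0.88 in PTC. Its PTC arrays stood at 9.52, 9.51, 9.46 and 9.30, above the pools at 8.49 to 8.71 with no overlap. Mcm4 and Mcm6 rose by 1.25 and 1.15 in ATC and by 1.28 and 1.56 in recurrent tumours, with 0.57 and 0.90 in PTC (limma adjusted p = 0.221 and 0.0809). Of the 4 other probe sets of Mcm3, 3 gave 0.66 to 1.60 in ATC and 1 gave -0.06.

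Helicase activation separated ATC from PTC in 1 gene. Cdc45, which joins the Mcm ring to make it active, was at 8.28, 7.71, 7.49, 8.02 and 8.06 in ATC, against 6.46, 6.30, 6.12 and 6.56 in PTC. ATC was higher by 1.55 ± 0.41 (SE, limma adjusted p = 0.0108), and by 1.63 within the JK titles (limma adjusted p = 0.005). Recurrent arrays ran from 6.19 through 7.99 to 9.19, with recurrent 5 and 6 within the PTC range, and lay 1.87 ± 0.32 above the normal pools, which ran from 5.81 to 5.99 (limma adjusted p = 0.00011). Gins1, a GINS subunit, rose by 1.42 in recurrent tumours and 1.08 in ATC. Mcm10, a factor that helps start the helicase, rose by 0.99 and 0.72. The Mcm10 call in ATC held in 9 of 24 fits that left out 1 array, with limma adjusted p up to 0.111, and its other probe set gave -0.30.

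Polymerase and primase subunits moved unevenly. Pole, the catalytic subunit of the leading-strand polymerase, rose by 1.99 ± 0.29 in recurrent tumours and by 1.48 ± 0.33 (SE) in ATC (limma adjusted p = 1.49e-05 and 0.00133). Pole2, its accessory subunit, rose by 1.57 and 1.17. Pola1, catalytic in the polymerase that extends primers, rose by 1.00 in recurrent tumours and differed by 0.31 in ATC and 0.02 in PTC, neither called. Pola2 (0.85), Prim2 (0.85) and Pold2 (0.78) were likewise called in recurrent tumours and not in ATC or PTC.

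Prim1, the catalytic subunit of primase, fell in PTC and ATC. It was at 7.88, 7.49, 8.50, 7.90 and 8.67 in ATC and at 8.07, 8.16, 7.77 and 7.97 in PTC, against 8.42 through 8.73 to 9.22 in normal pools. PTC lay below every pool, and ATC 3 and 5 lay among the pools. The falls were -0.67 ± 0.23 in ATC and -0.76 ± 0.25 (SE) in PTC (limma adjusted p = 0.0303 and 0.0425), and its other probe set gave -0.71 and -0.37. The calls were kept in 19 and 15 of 24 fits with 1 array left out. Limma adjusted p reached 0.101 without ATC 2 and 0.131 without PTC 3. Both calls were lost with the kind of title as a block (-0.68 and -0.69, limma adjusted p = 0.0874 and 0.108). Recurrent tumours, from 8.47 through 9.31 to 9.59, were above ATC by 1.01 ± 0.22 (limma adjusted p = 0.00718) and 0.34 above normal, which was not called.

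Pold1, catalytic in the lagging-strand polymerase, was the one member that limma called lower in ATC than in PTC. It stood at 8.21, 7.65, 7.44, 7.55 and 7.48 in ATC, against 8.66, 9.01, 8.82 and 8.83 in PTC. The difference was -1.16 ± 0.33 (SE, limma adjusted p = 0.0176), and -0.90 within the JK titles (limma adjusted p = 0.0218). It was not called without PTC 2 (limma adjusted p = 0.0582) or with a block for the kind of title. Its other probe set gave -0.99.

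Pcna, the sliding clamp that tethers polymerases, was higher in ATC than in PTC. It was at 11.77, 11.25, 12.54, 12.34 and 12.30 in ATC, where the 3 bare-number arrays were the highest. PTC stood at 11.27, 10.89, 10.90 and 11.10, and normal pools ran from 10.90 through 11.19 to 11.42. ATC lay 1.00 ± 0.27 above PTC and 0.86 ± 0.24 (SE) above normal (limma adjusted p = 0.0124 and 0.00844). Within the JK titles the differences from PTC and normal were 0.47 and 0.24, neither called (limma adjusted p = 0.401 and 0.645). With the kind of title as a block the difference from normal was 0.47 and was not called (limma adjusted p = 0.201). A block for JK against all other titles kept that call (0.78, limma adjusted p = 0.014). PTC differed from normal by -0.14, which was not called.

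Among the subunits of the clamp loader RFC, Rfc3 and Rfc5 rose in recurrent tumours and ATC, and Rfc2 and Rfc4 in recurrent tumours. Rfc2 was at 9.10, 8.91, 8.95 and 9.10 in PTC, above every pool (8.50 to 8.64), and lay 0.44 above normal (limma adjusted p = 0.134, and 0.000478 in the fit of these 2 groups alone). Recurrent tumours and PTC differed by 0.05 in Rfc2, which was not called. Rfc4 ran from 7.67 through 8.49 to 9.37 on recurrent arrays, with 7.21, 6.53, 7.74, 7.73 and 7.93 in ATC and 6.48 to 6.95 in the pools. It was higher in recurrent tumours by 1.62 ± 0.24 than in normal pools and by 0.96 ± 0.25 (SE) than in ATC (limma adjusted p = 1.8e-05 and 0.0298). Rfc1, the large subunit, differed by 0.40, -0.05 and 0.08 in recurrent tumours, ATC and PTC, and none was called. Within the JK titles Rfc1 was called higher in recurrent tumours than in normal pools (0.79, limma adjusted p = 0.000739). It was also called with the kind of title as a block (0.83, limma adjusted p = 0.00163). For RPA, which coats single strands, Rpa1 and Rpa2 rose by 0.53 and 0.49 in recurrent tumours, and none of the 3 subunits was called in ATC or PTC. ATC 1 and 2, with JK titles, had Rpa3 at 7.86 and 7.66, and the other ATC arrays at 8.82 to 9.01. Within the JK titles Rpa3 was called lower than in normal pools in ATC and PTC (-1.25 and -0.50, limma adjusted p = 0.00062 and 0.0441). With the kind of title as a block it was called in ATC (-0.90, limma adjusted p = 0.0146) and not in PTC. A block for JK against all other titles called neither.

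Lig1, which seals nicks on the lagging strand, was at 10.64, 9.27, 9.65, 9.06 and 10.04 in ATC, against 8.03 through 8.24 to 8.46 in normal pools. It rose by 1.50 ± 0.30 (SE) in ATC and by 0.92 ± 0.26 in recurrent tumours (limma adjusted p = 0.000572 and 0.00972). Fen1, the nuclease that trims flaps before ligation, gave readings that depended on the probe set. The one used differed by -0.14, -0.23 and 0.31 in recurrent tumours, ATC and PTC, none called. The other one differed by 1.36, 1.13 and 0.52. Within the JK titles the one used was 0.51 higher in recurrent tumours than in normal pools (limma adjusted p = 0.00567). With the kind of title as a block this difference was 0.48 (limma adjusted p = 0.0087). A block for JK against all other titles gave 0.09, which was not called (limma adjusted p = 0.68).

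Of the 44 genes, Rrm2 rose most in each tumour group. Rrm2, the small subunit of ribonucleotide reductase that limits the enzyme in S phase, ran from 9.50 through 10.76 to 11.37 on recurrent arrays. It was at 10.45, 9.43, 9.75, 9.31 and 10.10 in ATC and at 8.79, 8.23, 7.61 and 8.69 in PTC. Normal pools lay from 5.04 through 5.82 to 7.73, where pools 3 and 5 were high and reached PTC 3. The rises were 4.23 ± 0.38, 3.51 ± 0.43 and 2.03 ± 0.46 (SE), or 18.8-fold, 11.4-fold and 4.09-fold, in recurrent tumours, ATC and PTC (limma adjusted p = 2.06e-08, 2.51e-06 and 0.00415). One other probe set gave 4.85, 3.88 and 1.90, and another 2.98, 1.78 and 0.35.

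The other members of nucleotide synthesis changed less. Rrm1, the large subunit of the same enzyme, rose by 1.40 ± 0.20 in recurrent tumours and 1.15 ± 0.23 (SE) in ATC (limma adjusted p = 1.49e-05 and 0.000543). Tk1, which salvages thymidine, rose by 1.61 and 1.33, and its recurrent arrays ran from 6.11 through 8.75 to 9.48. Dut, which keeps dUTP out of DNA, rose by 1.30 and 1.43, while its other probe set gave 0.12 and 0.14. Dut was at 9.65, 9.27, 9.88, 9.99 and 10.07 in ATC, above PTC at 8.93, 8.58, 8.82 and 8.81 (difference 0.99 ± 0.29, SE, limma adjusted p = 0.0226). This call was lost with the kind of title as a block (0.93, limma adjusted p = 0.0697) and within the JK titles (0.67, 0.0561). All 3 probe sets of Tyms, which makes thymidylate, read low, and the highest had a mean of 4.63, above 9.6% of genes, so little can be read from its differences of 0.23, 0.01 and 0.55.

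Uhrf1, which carries DNA methylation through replication, rose by 2.37 ± 0.27, 2.12 ± 0.31 and 1.61 ± 0.33 (SE) in recurrent tumours, ATC and PTC (limma adjusted p = 8.7e-07, 2.08e-05 and 0.00202). It was at 9.50, 8.99, 9.09, 8.76 and 9.33 in ATC and at 8.68, 8.60, 8.33 and 8.87 in PTC, above every pool (6.50 through 6.82 to 7.83). Chek1, the checkpoint kinase of stalled forks, was at 7.27, 6.94, 6.79 and 7.10 in PTC against 5.30 through 5.85 to 6.09 in the pools, and rose by 1.23 ± 0.27 (limma adjusted p = 0.00287). It rose by 1.12 in ATC and 1.81 in recurrent tumours. Of its 3 other probe sets 1 moved alike (0.90 and 1.81), and 2 gave -0.29 and -0.16 in ATC. Brca1, a repair factor at broken forks, rose by 2.21 in recurrent tumours and 1.65 in ATC, and its 3 other probe sets gave -0.01 to 1.28 and -0.04 to 0.91.

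The E-type cyclins, which drive entry into S phase with Cdk2, differed between arrays of 1 group. Ccne2 was at 6.38, 5.30, 6.75, 7.81 and 7.31 in ATC, and rose by 1.19 ± 0.43 (SE, limma adjusted p = 0.0342). The call was kept in 18 of 24 fits with 1 array left out, and limma adjusted p reached 0.118 without ATC 4. ATC 2 lay within the pools, which ran from 5.24 through 5.52 to 5.82, and the other 4 ATC arrays above them. Within the JK titles the difference was 0.29 and was not called (limma adjusted p = 0.69). In recurrent tumours Ccne2 ran from 5.95 through 7.77 to 9.07 and rose by 2.30 ± 0.37 (limma adjusted p = 5.44e-05). Ccne1 rose by 0.91 ± 0.32 in recurrent tumours (limma adjusted p = 0.0327). This call was kept in 19 of 24 such fits, and limma adjusted p reached 0.0971 without normal pool 6, whose level of 5.68 was the lowest of all arrays. Chaf1b, which deposits histones behind the fork, rose by 0.80 in recurrent tumours.

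Whether partners changed unequally was tested for 4 pairs in 3 comparisons, as the difference between their log2 levels within an array, which a shift of the whole array leaves as it is. Cdt1 minus Gmnn averaged 1.67 ± 0.23 (SD, n = 4) in PTC and 1.34 ± 0.51 (n = 5) in ATC, against -2.27 ± 0.29 (n = 6) in normal pools. Each array of both tumour types was above each pool. This follows from the levels given above, since all these arrays had Cdt1 above and Gmnn below every pool. The outcome of the tests of this pair was therefore fixed by those levels and adds nothing to the calls of each gene. The shift was 3.95 in PTC and 3.61 in ATC, where the two-sided exact permutation tests gave p = 0.00476 and 0.00216, the smallest values they can give, and 0.026 for both after adjustment over 12 tests. Rrm2 minus Rrm1 averaged 0.08 ± 0.37 in ATC, against -2.28 ± 0.97 in the pools (shift 2.36, exact permutation p = 0.00649, adjusted 0.026). In PTC it averaged -0.85 ± 0.32, against the same pools (shift 1.43, exact permutation p = 0.019, adjusted 0.0571). The other 8 tests gave adjusted p of 0.114 or more, among them all 4 that set recurrent tumours against ATC.

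**Figure D4:**
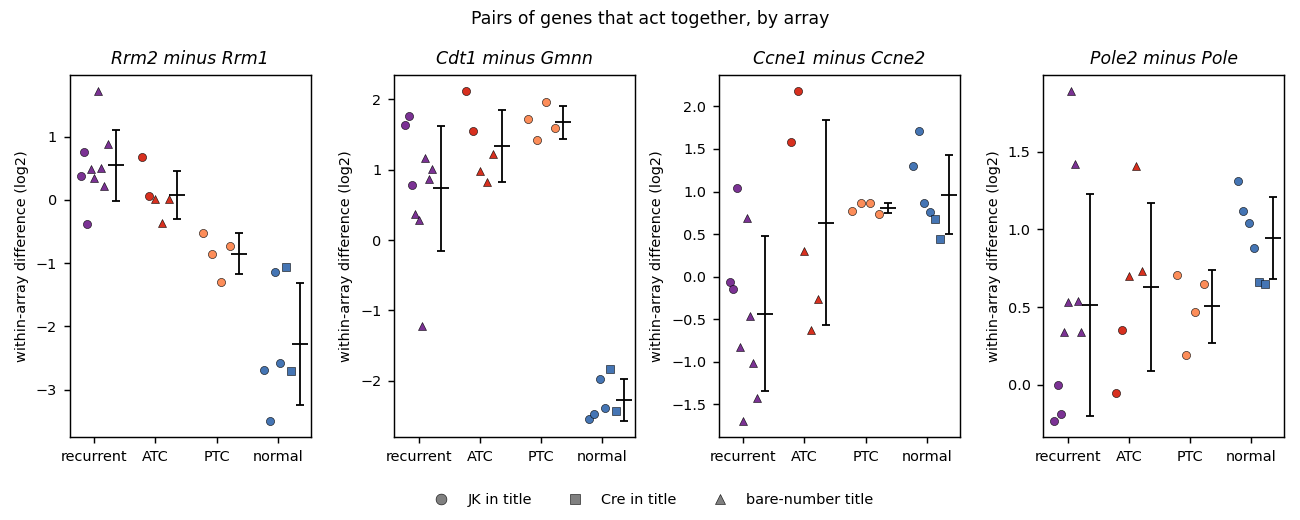
Within-array difference of log2 levels (y axis) for 4 pairs of genes by group, with marker shapes for the kind of title and bars for mean and SD. Cdt1 minus Gmnn is -1.22 or higher on every tumour array and -1.83 or lower on every normal pool.

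Recurrent tumours were next set against ATC. limma called 4 of the 44 genes, all higher, where it called 1.19% of all genes higher and 3.12% lower. They were Prim1 (1.01 ± 0.22, adjusted p = 0.00718), Rfc4 (0.96 ± 0.25, 0.0298), Pold2 (0.84 ± 0.19, 0.0119) and Rpa1 (0.62 ± 0.14, SE, 0.0127). Pold2 was from 8.19 through 9.26 to 9.59 on recurrent arrays and at 8.09, 7.80, 8.40, 8.29 and 8.33 in ATC. None of the 44 genes had groups that did not overlap (0.888% of all genes). The result differed by title: 22 genes were called higher within the JK titles, with a median of 0.83 over the 44 genes in 3 against 2 arrays. With 6 against 3 arrays of bare-number titles limma called 0, with 2 genes at an unadjusted p under 0.05, and the median was 0.20. A fit of these 2 groups alone also called 0, with 10 genes at an unadjusted p under 0.05. The fit of all arrays shares 1 estimate of the spread over groups, and the median SD of all genes was 0.52 in recurrent tumours and 0.27 in ATC. None of the 4 calls was kept in the fit of the 2 groups alone. Whether the 2 kinds of title differ was not tested. The share of all genes called within each kind of title is not given here. The counts of 22 and 0 therefore cannot show a difference particular to the 44 genes.

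Against PTC, recurrent tumours were higher in all 23 of the 44 genes that limma called, with 9.71% of all genes higher and 12.1% lower. The groups lay apart for 8 of the 44 genes and for 9.56% of all genes. Rrm2 (2.20 ± 0.43), Ccne2 (1.89 ± 0.42), Cdc6 (1.63 ± 0.32) and Rfc4 (1.48 ± 0.27, SE) led them, with limma adjusted p up to 0.00241. ATC was higher than PTC in 5 genes, Cdc45, Rrm2, Pcna, Dut and Pole2, and lower in Pold1, where limma called 7.81% of all genes higher and 9.35% lower. ATC and PTC arrays lay apart for 11 of the 44 genes and for 32.5% of all genes. Set against these shares, the 6 calls (13.6% of the 44 genes) and the 11 genes apart are near the background or under it. All PTC arrays carry JK titles and 3 of 5 ATC arrays do not. With the kind of title as a block, of these 6 calls only Cdc45 was kept (1.99, limma adjusted p = 0.00324), and the others had adjusted p of 0.063 (Rrm2), 0.0697 (Dut), 0.088 (Pcna), 0.12 (Pold1) and 0.158 (Pole2). Within the JK titles Cdc45 and Pold1 were kept. Rrm2 and Pole2 were each called in 18 of 24 fits that left out 1 array. Without PTC 2 the count fell to 2, without PTC 3 or ATC 5 to 3, and without recurrent 6 it was 10. The share of all genes called in these fits is not given here, so these counts cannot show a change particular to the listed genes. Cdt1 differed by 0.02 ± 0.48 (SE) between ATC and PTC.

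The 9 recurrent tumours spread widely. The median SD of the 44 genes within the group was 0.65, with 0.35 in ATC, 0.18 in PTC and 0.20 in normal pools, and over all genes it was 0.52, 0.27, 0.14 and 0.18. The array median of the 44 genes, relative to the mean of the pools, lay at 0.51 on recurrent 5 and 0.31 on recurrent 6, and from 0.85 to 1.75 on the other 7. Recurrent 5 and 6 held the lowest value of the group for 40 of the 44 genes, and recurrent 2 and 3 the highest for 30. Single genes broke this order. Recurrent 6 had Rrm2 at 10.76, the median of the group, with Tk1 at 6.11, Cdt1 at 7.95 and Pole at 6.21, the lowest of the group in all 3. Recurrent 3 had the highest Mki67 (12.37), Cdc45 (9.19) and Chaf1b (8.79) and the lowest Pcna (11.17) and Mcm3 (7.92).

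**Figure D5:**
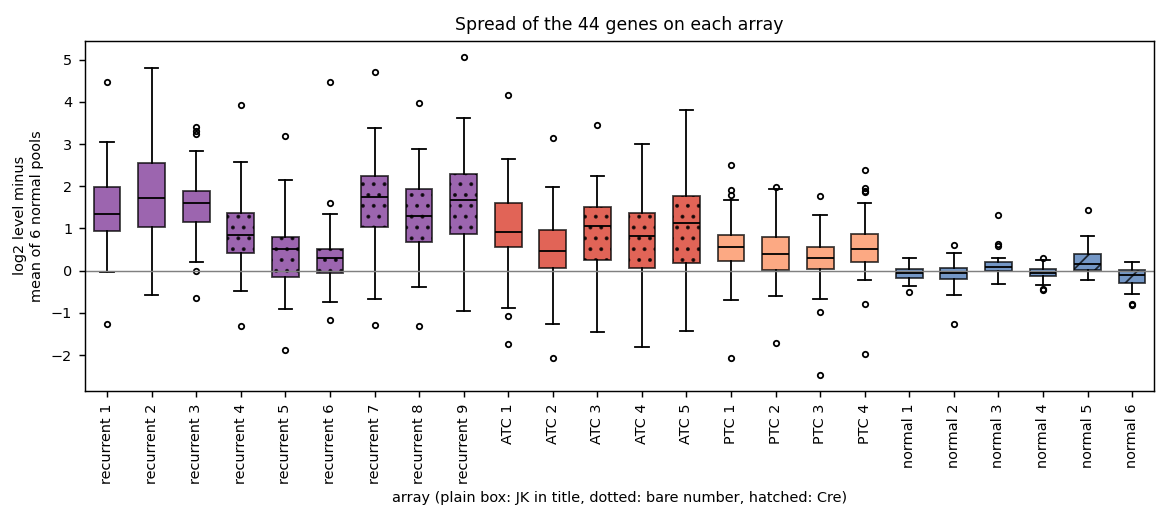
Spread of the 44 genes on each array (boxes with median and quartiles, whiskers by the usual box plot rule, y axis log2 level minus the mean of the 6 normal pools), by group and kind of title. Recurrent 5 and 6 lie lowest among recurrent arrays, with medians of 0.51 and 0.31.

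The 3 lists of other pathway genes were read the same way. Of 32 measured genes of the replication machinery outside the list, 15 rose and 1 fell in recurrent tumours, 9 and 3 in ATC and 3 and 1 in PTC. Of all genes 14.5% rose and 19.3% fell in recurrent tumours, 15.1% and 19.1% in ATC and 6.16% and 8.03% in PTC, so the PTC count is near the background. Top2a, which untangles copied DNA, rose by 3.78, 3.40 and 1.94, and Hells, a chromatin remodeller, by 2.86 and 2.55 in recurrent tumours and ATC. Dbf4, which activates the kinase that fires origins, rose by 2.43 and 2.09. Pold4, a small subunit of the lagging-strand polymerase, was lower in recurrent tumours than in ATC (-1.53 ± 0.37, SE, limma adjusted p = 0.0172).

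Of 23 other nucleotide synthesis genes, 5 rose and 3 fell in recurrent tumours, 3 and 7 in ATC and 2 and 2 in PTC, with medians of 0.20, 0.02 and 0.01. Set against the same shares of all genes, the 3 that rose in ATC, the 3 that fell in recurrent tumours and both PTC counts are near the background or under it. Dck, a kinase that salvages deoxycytidine, rose by 1.83, 1.66 and 1.05. Rrm2b, the reductase subunit used outside S phase, fell by 1.01 in recurrent tumours, by 0.98 in ATC and by 0.84 in PTC (limma adjusted p = 9.92e-06, 7.15e-05 and 0.00192). Of 11 E2F and pocket protein genes, 5 rose and 2 fell in recurrent tumours, 3 and 2 in ATC, and 0 and 3 in PTC. Of all genes 14.5% rose and 19.3% fell in recurrent tumours, 15.1% and 19.1% in ATC and 6.16% and 8.03% in PTC. The 2 that fell in recurrent tumours, the 2 that fell in ATC and the 0 that rose in PTC are thus near the background or under it. E2f8, a repressor that is itself made in S phase, rose by 2.33 and 3.28 in recurrent tumours and ATC, and E2f1, an activator, by 1.05 and 0.97. In PTC the pocket proteins Rb1 and Rbl1, which restrain E2F, fell by 1.23 and 0.97 (limma adjusted p = 0.00647 and 0.00126).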

How the data were processed

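The 24 samples were hybridised to Affymetrix Mouse430A_2 arrays. The authors deposited log2 values. Per the submitters' processing notes, Partek and RMA were used, and no version or genome build was at hand (not given in the sources used here). Among 22690 probe sets, 20393 named a single gene, 691 named several genes and 1606 had no name. For 20364 of them RefSeq's GRCm38.p6 table gave the current symbol through the gene ID. The probe set with the highest mean stood for a gene, which gave 12394 genes, 44 of them listed members. Array medians were 7.38 to 7.58, and no pair of arrays held identical values. limma 3.58.1 in R 4.3.3 was fitted with 4 group means on all arrays, with Benjamini-Hochberg adjustment over all genes and calls under 0.05. The number of arrays limits the precision. Pairs of genes were tested by exact permutation. All listed genes could be named, and of the other pathway lists the 3 called genes with the largest differences in each comparison. Members and lists were chosen with earlier results of these data known. Alternatives changed the samples, title block, probe set, filter, scaling, spread and array weights, and left out each array. Replicate numbers only name arrays.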

Additional observations from a re-analysis of the deposited data

Results flagged for a closer look

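Each gene was looked at within each group for 1 array far from the others, by the size of its gap to the nearest array over the range of the group. Of 176 such groups 8 had one, and chance gives about 1 in 20. In ATC, Mcm4 stood at 9.46 on ATC 2, with the others at 10.12 to 10.27, and Pold1 at 8.21 on ATC 1, with the others at 7.44 to 7.65. In PTC, Orc1 was at 4.65 on PTC 4 (others 4.97 to 5.01), Pola2 at 7.57 on PTC 4 (others 7.39 to 7.40), Rfc5 at 8.15 on PTC 3 (others 8.24 to 8.25) and Rpa1 at 10.14 on PTC 3 (others 10.40 to 10.43). Among normal pools, Prim2 was at 7.17 on pool 6 (others 7.57 to 7.78) and Rfc1 at 9.03 on pool 5 (others 8.66 to 8.78).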

How the results depend on the processing

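The number of the 44 genes called moved by over 1.5 times in these cases, where the cause was not tested. With the 2 groups alone it was 33 for PTC against normal, 21 for ATC against PTC, 0 for recurrent tumours against ATC (10 at an unadjusted p under 0.05) and 13 for recurrent tumours against PTC. With array weights the same 4 comparisons gave 30, 25, 9 and 35. JK titles alone gave 20 for PTC against normal and 22 for recurrent tumours against ATC, and bare-number titles alone 0 for the second (2 at an unadjusted p under 0.05). The mean of probe sets gave 7 for recurrent tumours against ATC. The share of all genes called in these fits is not given here. These counts therefore cannot show a change particular to the 44 genes. With 1 array left out in turn, counts ran from 35 to 39 for recurrent tumours, 23 to 29 for ATC and 7 to 15 for PTC against normal. They ran from 2 to 10 for ATC against PTC, 2 to 9 for recurrent tumours against ATC (2 without ATC 2, 8 without recurrent 5, 9 without recurrent 6) and 15 to 30 for recurrent tumours against PTC (15 without PTC 3). The share of all genes called with 1 array left out is not given here, so the same limit holds for these ranges. Of the 12 pair tests, 3 were called, and 0 within the JK titles, where the arrays are too few to reach the threshold. Leaving out normal pools 3 and 5 was chosen after seeing the data. Over 107 calls of single genes, 3667 of 3854 alternative values kept the call, 187 lost it and none changed sign. No paired analysis was possible because replicate numbers follow record order and tie no arrays together.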
